A study of Homo sapiens with 6 samples.

Results

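Dense stretches of human chromosome 7, in which peaks of V5-tagged GSE1 lay close together, are described here in build hg38. They run from 1 to 3 Mb, from 4 to 7 Mb, from 73 to 77 Mb and over the 4 Mb from 99 Mb onward, and are called the MAD1L1, FSCN1, CLIP2 and CUX1 segments after genes within them. The segments were chosen on the number of peaks per Mb in these same data, so that their peak density is a description and not a finding. A peak belonged to a segment when its start lay inside the bounds. The segments held 1351 of the 34634 peaks of both lists, of which 857 were in the DMSO list and 494 in the MC2580 list.

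The peaks came from chromatin immunoprecipitation and sequencing (ChIP-seq) with the V5 antibody ab9116 in NB4, a cell line from acute promyelocytic leukaemia. Cells transduced with the lentiviral vector pLEX_307 carrying GSE1 transcript variant 2 were given DMSO, the solvent control, or 2 µM of the LSD1 inhibitor MC2580 for 24 h. Cells with empty pLEX_307 gave a V5 ChIP and an input without treatment, and each GSE1 arm had its own input. Each of the 6 groups held 1 library, so the lists compare libraries, not replicated conditions. The inputs and the empty-vector ChIP served as background of the peak calls, and their own values were not analysed here. The bait was V5-tagged GSE1 expressed from a lentiviral vector, and peaks of the endogenous protein were not measured.

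GSE1 is a chromatin-associated partner of LSD1, a histone demethylase that removes methyl groups from lysine 4 of histone H3 and works with the CoREST corepressor. In myeloid leukaemia cells LSD1 is known to hold back differentiation genes together with transcription factors such as GFI1. Inhibitors of LSD1 release part of this block, and the study asked where GSE1 lies on chromatin before and after such an inhibitor. The segments hold genes of several kinds. The Williams syndrome genes lie in the CLIP2 segment, and genes for membrane-bound mucins and for the drug-metabolising CYP3A enzymes lie in the CUX1 segment.

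The reference sequence in the middle of 5 strong DMSO peaks is printed as an example of the DNA under them. Each line gives 200 bases of the plus strand in lower case. Capitals mark any of 6 short words known for blood transcription factors, on either strand, which were TGTGGTTT (RUNX), GAGGAAGT (PU.1), TGANTCA (AP-1), TTGCNNAA (CEBP), AGATAA for the GATA factors and AAATCAC (GFI1). For each segment the strongest DMSO peak is shown whose middle lay outside annotated UTRs and held no 16-letter word with 1000 or more copies on chromosome 7. The peak shown ranked 1 by score in the CUX1 segment and 2 in the other segments. The highest-scoring DMSO peak of any segment without an MC2580 partner, at KPNA7, follows.
MAD1L1 segment, chr7:2508464-2508663, upstream of LFNG: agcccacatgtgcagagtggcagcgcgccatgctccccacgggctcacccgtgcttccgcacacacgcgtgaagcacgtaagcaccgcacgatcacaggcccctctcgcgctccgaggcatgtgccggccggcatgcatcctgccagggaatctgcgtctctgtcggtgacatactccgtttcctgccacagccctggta
FSCN1 segment, chr7:5424972-5425171, TNRC18 promoter: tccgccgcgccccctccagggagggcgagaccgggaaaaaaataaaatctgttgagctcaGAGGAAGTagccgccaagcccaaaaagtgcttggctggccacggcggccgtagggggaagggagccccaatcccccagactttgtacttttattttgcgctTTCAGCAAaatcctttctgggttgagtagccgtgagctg
CLIP2 segment, chr7:74292927-74293126, within CLIP2: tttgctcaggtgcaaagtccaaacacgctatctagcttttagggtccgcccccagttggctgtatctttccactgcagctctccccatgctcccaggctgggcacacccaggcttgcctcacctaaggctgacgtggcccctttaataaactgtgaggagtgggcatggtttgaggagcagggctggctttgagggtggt
CUX1 segment, chr7:99623553-99623752, ZSCAN25 promoter: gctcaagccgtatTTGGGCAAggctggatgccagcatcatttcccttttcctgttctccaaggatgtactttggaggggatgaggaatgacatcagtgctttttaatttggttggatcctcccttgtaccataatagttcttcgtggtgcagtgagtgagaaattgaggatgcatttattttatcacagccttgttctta
CUX1 segment, chr7:99248764-99248963, KPNA7 promoter: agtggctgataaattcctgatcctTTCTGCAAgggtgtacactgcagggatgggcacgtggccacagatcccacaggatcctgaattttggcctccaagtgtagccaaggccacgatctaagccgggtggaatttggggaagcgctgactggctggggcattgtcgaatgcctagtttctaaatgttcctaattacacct

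Of these 5 windows, the TNRC18 window held a PU.1 and a CEBP word, and the ZSCAN25 and KPNA7 windows each held a CEBP word. The LFNG and CLIP2 windows held none of the 6 words.

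The RUNX word stood in the middle 200 bases of 16 of the 857 DMSO peaks. The highest-scoring of these in each segment is printed as 80 bases around the word. The share of DMSO peaks with this word, 1.87%, was below the 3.66% in the rest of the chromosome. The shares for CEBP, GATA and GFI1 were below those of the rest as well. Where the plus strand holds the reverse complement, the capitals read AAACCACA. In these lines intergenic means outside protein-coding genes, and genes of other types were not considered.
MAD1L1 segment, chr7:1510867-1510946, intergenic, peak score 308.66: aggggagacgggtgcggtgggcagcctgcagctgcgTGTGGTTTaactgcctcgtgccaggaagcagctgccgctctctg
FSCN1 segment, chr7:4123931-4124010, within SDK1, peak score 136.8: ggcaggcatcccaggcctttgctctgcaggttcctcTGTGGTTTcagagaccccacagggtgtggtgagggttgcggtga
CLIP2 segment, chr7:75105996-75106075, within GTF2IRD2B, peak score 156.3: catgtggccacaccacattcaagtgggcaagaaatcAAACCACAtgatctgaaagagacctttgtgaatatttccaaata
CUX1 segment, chr7:100991954-100992033, within MUC12, peak score 194.69: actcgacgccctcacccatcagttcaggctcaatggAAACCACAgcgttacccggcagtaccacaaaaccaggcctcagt

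The segments differed in how evenly the peaks were spread. The MAD1L1 segment was the densest, with 116 DMSO and 74.5 MC2580 peaks per Mb. The FSCN1 segment held 54.7 and 33.3 per Mb, the CLIP2 segment 62.0 and 27.0, and the CUX1 segment 53.3 and 34.3. The rest of chromosome 7 held 10.9 and 6.97 per Mb. Together the segments made up 8.18% of the sequence of the chromosome and held 35.1% of its DMSO and 32.7% of its MC2580 peaks.

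The bounds were whole Mb chosen on density in these data, and peaks did not reach all of them. In the CLIP2 segment the first DMSO peak started 367264 bp inside the bound and the last 429915 bp before the end. Of the 13 bins of 1 Mb inside the segments, each held 47 to 171 distinct peaks, where an MC2580 peak over a DMSO peak was not counted again. The bins just outside held 15 before and 9 after the MAD1L1 segment, 9 and 4 around the FSCN1 segment, 12 and 24 around the CLIP2 segment, and 39 and 15 around the CUX1 segment. Density was not limited to these segments, however. Outside them 15 of 147 bins reached 40 distinct peaks, and the highest, from 44 to 45 Mb, held 99.

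Inside the MAD1L1 segment no stretch was empty. Its 20 bins of 100 kb held 5 to 20 DMSO peaks each and 2 to 14 MC2580 peaks. Peaks ran through MAD1L1, which encodes a protein of the spindle checkpoint, with 38 DMSO and 30 MC2580 peaks over 417 kb of gene. C7orf50, at the start of the segment, held 18 and 15, and AMZ1, a metalloprotease gene, held 16 and 5.

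The FSCN1 segment had a core instead. From 1300 to 1700 kb into the segment, 4 consecutive bins held 17, 18, 19 and 15 DMSO peaks and 9, 7, 12 and 11 MC2580 peaks, while every other bin held at most 8 of either list. This core holds all or part of TNRC18, with 21 DMSO and 10 MC2580 peaks in the gene, the F-box gene FBXL18 with 16 and 5, the ubiquitin ligase gene RNF216 with 16 and 9, and ACTB, the beta-actin gene, with 9 and 7. FSCN1, whose product bundles actin filaments, lies between ACTB and RNF216.

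The CLIP2 segment was broken into blocks. Of its 40 bins, 11 held no DMSO peak and 14 no MC2580 peak, yet the fullest bin of any segment, with 22 DMSO peaks, was also here. HIP1, an endocytic adaptor gene, held 17 DMSO and 18 MC2580 peaks, and CLIP2, which encodes a microtubule-binding protein, held 16 and 10. The electron-donor gene POR held 11 and 3. In the CUX1 segment the bins held 0 to 12 DMSO peaks, and CUX1 itself, a homeobox gene of 468 kb, held 19 and 12.

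**Figure D1:**
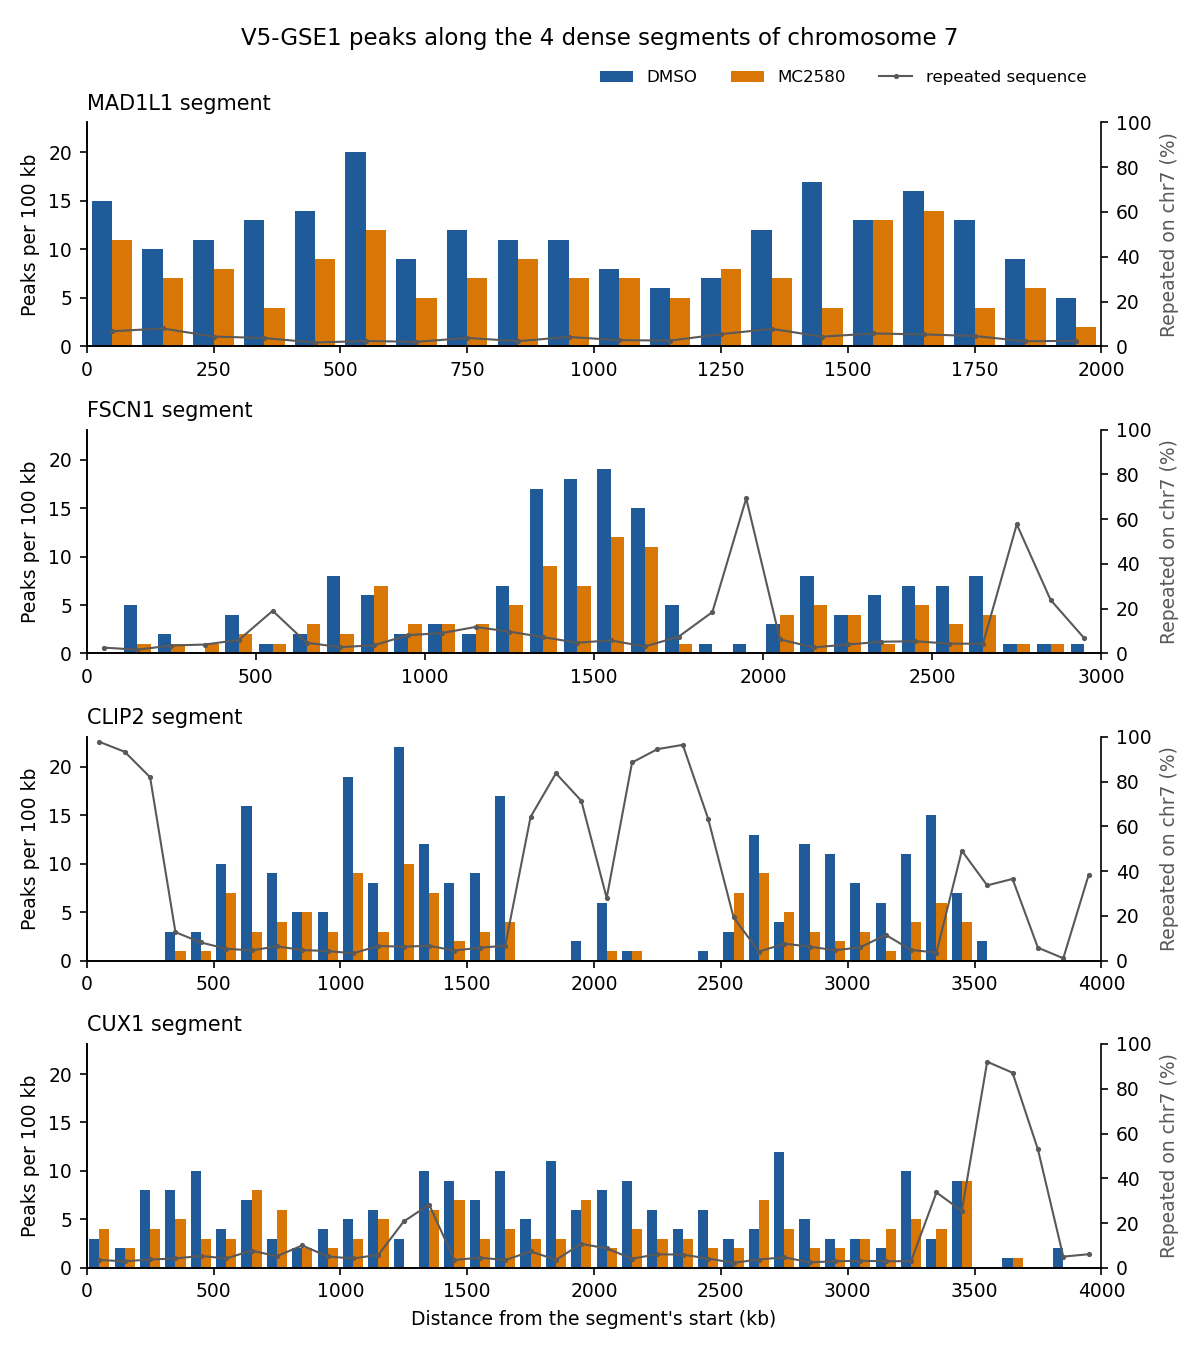
Peaks per 100 kb (left axis) in the DMSO and MC2580 lists, by distance in kb from the start of each segment; the grey line (right axis) is the percentage of 50-letter stretches that occur more than once on chromosome 7. The MAD1L1 segment has no empty bin, and the empty stretches of the CLIP2 segment lie mostly where the grey line is high.

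The gaps of the CLIP2 segment went with duplicated sequence, a measure added after the gaps had been seen. The percentage of 50-letter stretches that recur on chromosome 7, on either strand, was 29.5% in the CLIP2 segment, 12.5% in the CUX1 segment, 10.8% in the FSCN1 segment and 4.11% in the MAD1L1 segment, against 7.37% in the rest. Only reads with a unique match were kept in the study, and the part of this filter in the gaps was not tested. Of the 15 bins in all segments without a peak of either list, 9 were at least 50% repeated, with a median of 64.2%, while the 115 bins with a peak had a median of 5.199%. Yet 4 of the 15 were under 10% repeated. Per Mb of non-repeated sequence the CLIP2 segment held 88.0 DMSO and 38.3 MC2580 peaks. Its MC2580 density, the lowest per Mb of all sequence, was then close to 37.4 in the FSCN1 segment and 39.1 in the CUX1 segment.

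Genes with duplicated promoters showed the same pattern. Among the 236 protein-coding genes that touched a segment, 38 had at least 50% repeated sequence within 3 kb of their transcription start sites (TSSs), and 35 of these had no promoter peak in either list. They include NCF1, which encodes a subunit of the phagocyte NADPH oxidase, and many SPDYE, POLR2J and GTF2IRD2 copies. The exceptions were CASTOR2 with a DMSO score of 71.82, SPDYE3 with 390.11 and RASA4 with 125.21. Of these RASA4 alone also had an MC2580 promoter peak, at 51.64. The SPDYE3 peak overlapped an MC2580 peak of 75.53 that lay outside the 3 kb window. Absence of a peak at genes with duplicated promoters therefore cannot be told apart from absence of uniquely aligned reads.

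Fewer peaks were called after MC2580 in every segment. The MAD1L1 segment went from 232 peaks in DMSO to 149 in MC2580, a ratio of 0.642 (95% interval 0.523 to 0.789). The FSCN1 segment went from 164 to 100, a ratio of 0.610 (0.476 to 0.781). The CLIP2 segment went from 248 to 108, a ratio of 0.435 (0.348 to 0.546). The CUX1 segment went from 213 to 137, a ratio of 0.643 (0.519 to 0.797). The CLIP2 segment thus had the lowest ratio, and its interval lay below that of the rest of the chromosome, where 1586 and 1017 peaks gave 0.641 (0.593 to 0.694). All chromosomes together gave 0.618 (0.605 to 0.632), a value inside the intervals of the MAD1L1, FSCN1 and CUX1 segments. Among peaks scoring at least 100 it was not the lowest, with 0.263 against 0.25 in the FSCN1 segment and 0.298 in the rest. The intervals treat peaks as independent counts, cover counting error only and say nothing of the spread between cultures. Read depth was unknown, and a difference in depth between the libraries cannot be told apart from a difference in binding. The paper reports that MC2580 also lowered the V5-tagged GSE1 protein itself, about as much as the endogenous one. The part of this in the peak numbers was not tested.

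The difference was spread along the segments. DMSO had more peaks than MC2580 in 18 of 20 bins of the MAD1L1 segment, 18 of 30 of the FSCN1 segment, 25 of 40 of the CLIP2 segment and 25 of 40 of the CUX1 segment. MC2580 had more in 1, 6, 2 and 7 bins respectively.

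The peak score is minus 10 times the log10 of the peak caller's p-value, and 50 is the calling threshold. Median scores in the DMSO list were 84.6 in the MAD1L1 segment, 82.3 in the CLIP2 segment, 78.9 in the CUX1 segment and 77.4 in the FSCN1 segment. In the MC2580 list they were 69.3, 71.1, 60.01 and 63.2 in the same order. For the segments together the medians were 80.8 (95% interval 77.9 to 83.1) in DMSO and 65.5 (63.1 to 67.5) in MC2580, and for the rest of the chromosome 73.1 (71.2 to 75.2) and 60.4 (59.7 to 61.8). Scores of at least 100 were held by 30.3% of DMSO and 17.0% of MC2580 peaks in the segments.

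The strongest peak of the segments was intergenic. It spanned chr7:2862317-2866946, 18009 bp from GNA12, which encodes a G-protein alpha subunit, and scored 3184.82 in DMSO and 908.41 in MC2580. Next in the MAD1L1 segment came a peak of 6973 bp beside LFNG, the gene of a glycosyltransferase that modifies Notch receptors, at chr7:2505078-2512050. It scored 947.13, and its best MC2580 partner 244.73. The reverse held inside LFNG, where an MC2580 peak at chr7:2521564-2525754 scored 360.7 and its best DMSO partner 127.89. A peak beside CHST12, a chondroitin sulfotransferase gene, at chr7:2399560-2400696 scored 905.08 and 315.35.

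In the FSCN1 segment the FSCN1 promoter led, with 875.72 in DMSO and 269.58 in MC2580 at chr7:5592707-5597113. The TNRC18 promoter at chr7:5423736-5426408 followed with 859.7 and 94.73. The highest MC2580 score of this segment, 316.8, lay at the promoter of DAGLB, a diacylglycerol lipase gene, where the DMSO peak scored 727.38.

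In the CLIP2 segment the strongest peak lay in a HIP1 intron at chr7:75616040-75618666, with 2004.66 in DMSO and 662.83 in MC2580. A CLIP2 peak at chr7:74291707-74294347 scored 1225.62 and 243.89, and a peak in an intron of GTF2I, the gene of the transcription factor TFII-I, scored 666.5 and 155.83. In the CUX1 segment ZSCAN25, a zinc finger gene, carried 898.17 and 183.41 at chr7:99622123-99625182. COL26A1, a collagen gene, carried 776.08 and 200.84, and an intergenic peak 87782 bp from the nearest TSS, with MYL10 as the nearest gene, carried 690.11 and 188.08. Each of the 12 strongest DMSO peaks, 3 per segment, overlapped an MC2580 peak of lower score.

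Some strong peaks stood in 1 list only. The highest DMSO peak without an MC2580 partner scored 506.91 in the MAD1L1 segment, in an intron of MAD1L1. It scored 321.26 in the FSCN1 segment, 115 bp from a TSS of RAC1, the small GTPase gene. In the CLIP2 segment it scored 453.96, 1455 bp from the nearest TSS and closest to YWHAG, the gene of a 14-3-3 protein, and an MC2580 peak lay 571 bp away. In the CUX1 segment it scored 542.95, at KPNA7, an importin gene. The highest MC2580 peaks without a DMSO partner were weaker, between 126.3 and 157.39. They lay in a MAD1L1 intron (142.08), at AIMP2 (157.39), which encodes a scaffold of the aminoacyl-tRNA synthetase complex, in a GTF2IRD1 intron (126.3) and at the promoter shared by LAMTOR4 and TRAPPC14 (153.1).

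Peaks of the lists met more often in the segments than elsewhere on the chromosome. An MC2580 peak overlapped 194 of 857 DMSO peaks by at least 1 bp, or 22.6% (95% Wilson interval 19.96 to 25.6), where all chromosomes gave 33.6%. The share was 15.4% in the rest of chromosome 7, a difference of 7.19 percentage points (3.93 to 10.6). In the other direction 203 of 494 MC2580 peaks, or 41.1% (36.8 to 45.48), overlapped a DMSO peak, where all chromosomes gave 58.0%. The rest of chromosome 7 gave 24.7%, a difference of 16.4 points (11.4 to 21.5). The shares in the segments were thus above those of the rest of chromosome 7 and below those of all chromosomes.

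Denser lists meet more often, so the covered sequence stands beside these shares. MC2580 peaks covered 3.53% of the segments and 0.602% of the rest, and DMSO peaks 7.35% and 1.10%. Their part in the difference was not tested. By segment, 29.3% of DMSO peaks in the MAD1L1 segment overlapped, 20.1% in the FSCN1 segment, 19.4% in the CLIP2 segment and 21.1% in the CUX1 segment. Of MC2580 peaks, 47.7%, 33.0%, 48.1% and 34.3% overlapped in the same order. The CLIP2 segment therefore had the lowest share of DMSO peaks with a partner and the highest share of MC2580 peaks with one, although its intervals overlapped those of the other segments.

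Overlap grew with the score. Of DMSO peaks scoring 50 to 75 in the segments, 10.0% had an MC2580 partner, and of those scoring at least 200, 70.9%. Of MC2580 peaks scoring 50 to 75, 29.4% had a DMSO partner, and all 14 scoring at least 200 had one. At 50 to 75 the corresponding shares in the rest of the chromosome were 6.61% and 13.5%.

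**Figure D2:**
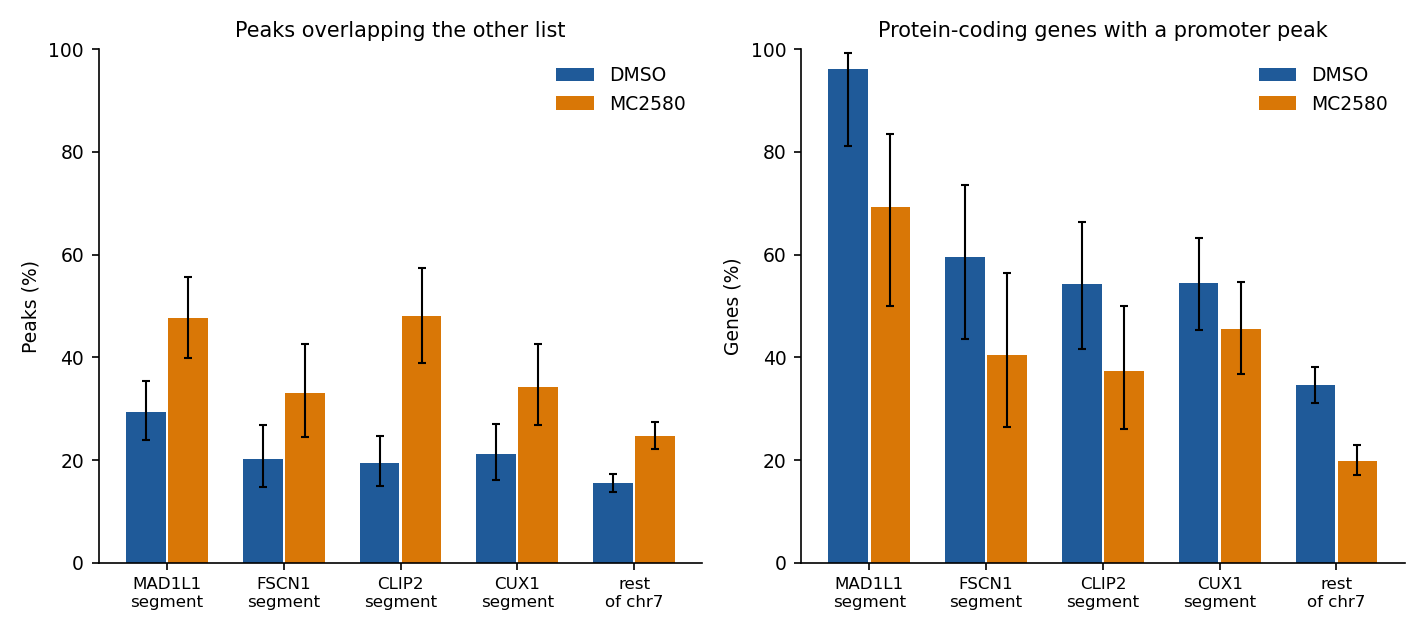
Left, percentage of peaks of each list that overlap the other list by at least 1 bp; right, percentage of protein-coding genes with a peak within 3 kb of a TSS. Bars are the shares in the segments and in the rest of chromosome 7, and error bars are 95% Wilson intervals that cover counting error only. The MAD1L1 segment stands highest on the right, at 96.2% in DMSO.

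Where a peak of each list matched 1 to 1, the MC2580 score was usually the lower. Of 179 such pairs in the segments, 147 had the lower score in MC2580, or 82.1% (75.9 to 87.0), where all chromosomes gave 76.7%. The median ratio of scores, MC2580 to DMSO, was 0.632 (0.550 to 0.722), and in the rest of the chromosome it was 0.629 (0.503 to 0.702). The segments did not stand apart in this respect. The median was lowest in the CLIP2 segment, at 0.539 (0.461 to 0.741), and highest in the FSCN1 segment, at 0.747 (0.444 to 0.888), with overlapping intervals.

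Ratios ranged from 0.110 to 3.46. The highest came from a peak inside ACTB at chr7:5553034-5553889, which scored 56.39 in DMSO and 195.2 in MC2580. A peak inside TTYH3 went from 66.08 to 180.2. Neighbouring peaks in MCM7, which encodes a subunit of the replicative helicase, went from 57.36 to 123.48 and from 65.25 to 130.79. These were among 32 pairs with the higher score in MC2580, whose DMSO scores ran from 52.29 to 156.3 with a median of 65.7. Both peaks of a pair had to reach the calling threshold of 50, so a DMSO peak near it could not have a partner with a much lower score. The part of this limit in the ratios was not tested.

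**Figure D3:**
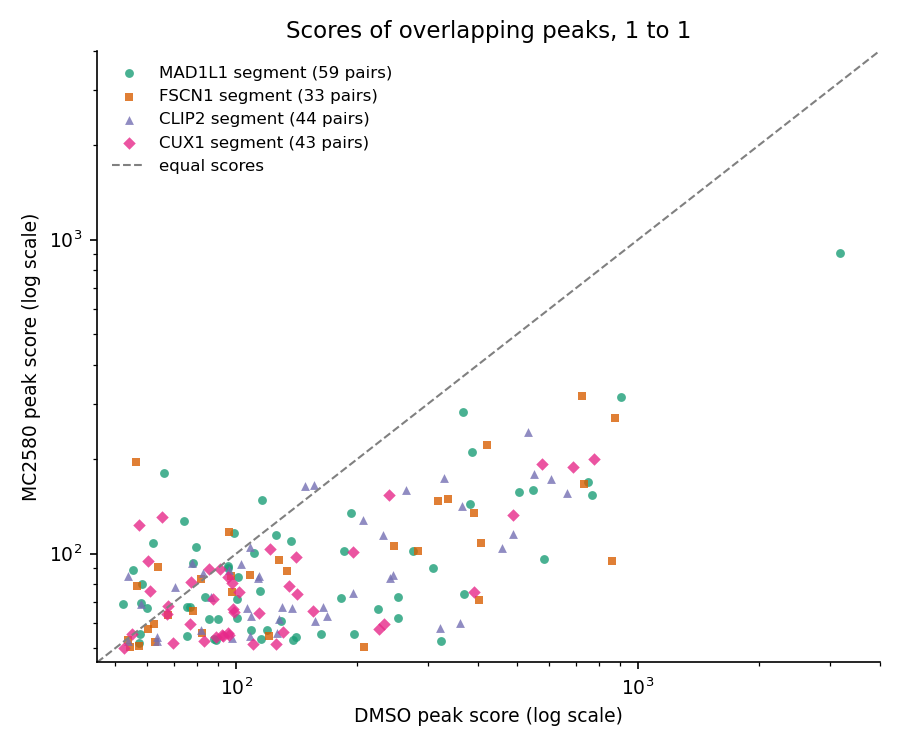
Score of the DMSO peak (x axis) and of the MC2580 peak (y axis) for peaks that overlap 1 to 1 in the segments, on log scales; each point is a pair and the dashed line marks equal scores. Of 179 pairs, 147 lie below the line.

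Peaks of the segments lay near TSSs more often than other peaks of chromosome 7. Within 3 kb of a TSS were 44.6% of DMSO peaks (41.3 to 47.9) and 44.5% of MC2580 peaks (40.2 to 48.9), against 35.2% and 27.7% in the rest. The differences were 9.39 points (5.32 to 13.5) and 16.8 points (11.6 to 21.96). The sequence within 3 kb of a TSS was 32.3% of the segments and 14.8% of the rest, so the segments are also richer in TSSs, and its part in the difference was not tested. Intron peaks made up 26.1% and 25.7% in the segments, against 35.4% and 38.7% in the rest. The CUX1 segment had the highest promoter shares, 50.7% and 49.6%, and the most genes, with 28.3 protein-coding starts per Mb. The MAD1L1 segment, although densest in peaks, had 12.5 starts per Mb.

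Of 236 protein-coding genes touching the segments, 141 had a DMSO promoter peak, or 59.7% (53.4 to 65.8), and 107 an MC2580 promoter peak, or 45.3% (39.1 to 51.7). In the rest of the chromosome these shares were 34.6% and 19.9% of 694 genes. Segments chosen for many peaks per Mb also have more promoters with a peak, so these shares are a description. Both lists marked 87 genes of the segments, DMSO alone 54, MC2580 alone 20 and neither 75. Of the 694 genes in the rest of the chromosome, both lists marked 90, DMSO alone 150, MC2580 alone 48 and neither 406. Of the 20 genes with an MC2580 peak alone, 14 were in the CUX1 segment, which holds 114 of the 236 genes, and none were in the MAD1L1 segment. For 2 of the 20, COPS6 and ALKBH4, the MC2580 peak overlapped a DMSO peak that lay outside the 3 kb window, and for the other 18 it overlapped none. The 54 genes with a DMSO promoter peak alone were not checked in this way, and the SPDYE3 peak did meet an MC2580 peak. Neighbouring genes can share a peak, as LAMTOR4 and TRAPPC14 did.

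In the MAD1L1 segment 25 of 26 genes carried a DMSO promoter peak and 18 an MC2580 promoter peak. The exception was ELFN1, which had 12 DMSO and 9 MC2580 peaks inside the gene but none within 3 kb of its TSSs. The homeobox gene UNCX scored 506.27 in DMSO and 157.14 in MC2580. INTS1, a subunit gene of the Integrator complex, had 7 DMSO promoter peaks, the best at 252.77, and 3 in MC2580, the best at 72.66. EIF3B, a translation initiation factor gene, went the other way, with best scores of 146.22 and 167.71.

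Myeloid, immune and signalling genes formed the first of 4 gene lists, with 30 members in the segments. Of these, 25 (83.3%) had a DMSO promoter peak and 17 (56.7%) an MC2580 promoter peak, and 15 had both. Over all 236 genes of the segments the shares were 59.7% and 45.3%. Over the 198 genes with less than 50% repeated promoter sequence they were 69.7% and 53.5%. The gene lists were chosen with earlier results of these data known, so their shares are a description. In all 15 genes with both, the best MC2580 score was the lower, although the best peaks of the lists need not overlap. The same held for 82 of the 87 genes of the segments with both, or 94.3%, so that neither this list nor those below stand apart in this. The adaptor gene LAT2, which acts in signalling of myeloid and B cells, scored 552.43 and 179.66. The adaptor gene SH2B2 scored 489.55 and 132.53, and LIMK1, the gene of a kinase of cofilin, 394.68 and 94.87. RAC1 scored 321.26 and 52.01, the latter at a different peak, and PILRA, which encodes an inhibitory receptor of myeloid cells, 264.04 and 54.82.

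Another 10 of the list had a DMSO peak alone, among them the ephrin receptor gene EPHB4 at 339.72 and MAFK, a small Maf factor gene, at 165.9. MC2580 alone marked ORAI2, a calcium channel gene, at 78.95 and CCL26, an eotaxin gene, at 59.99. NCF1, EPO, the erythropoietin gene, and AP1S1 had no promoter peak, and NCF1 is among the genes with duplicated promoters. FGL2, the remaining gene of the list, lay outside the bounds.

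**Figure D4:**
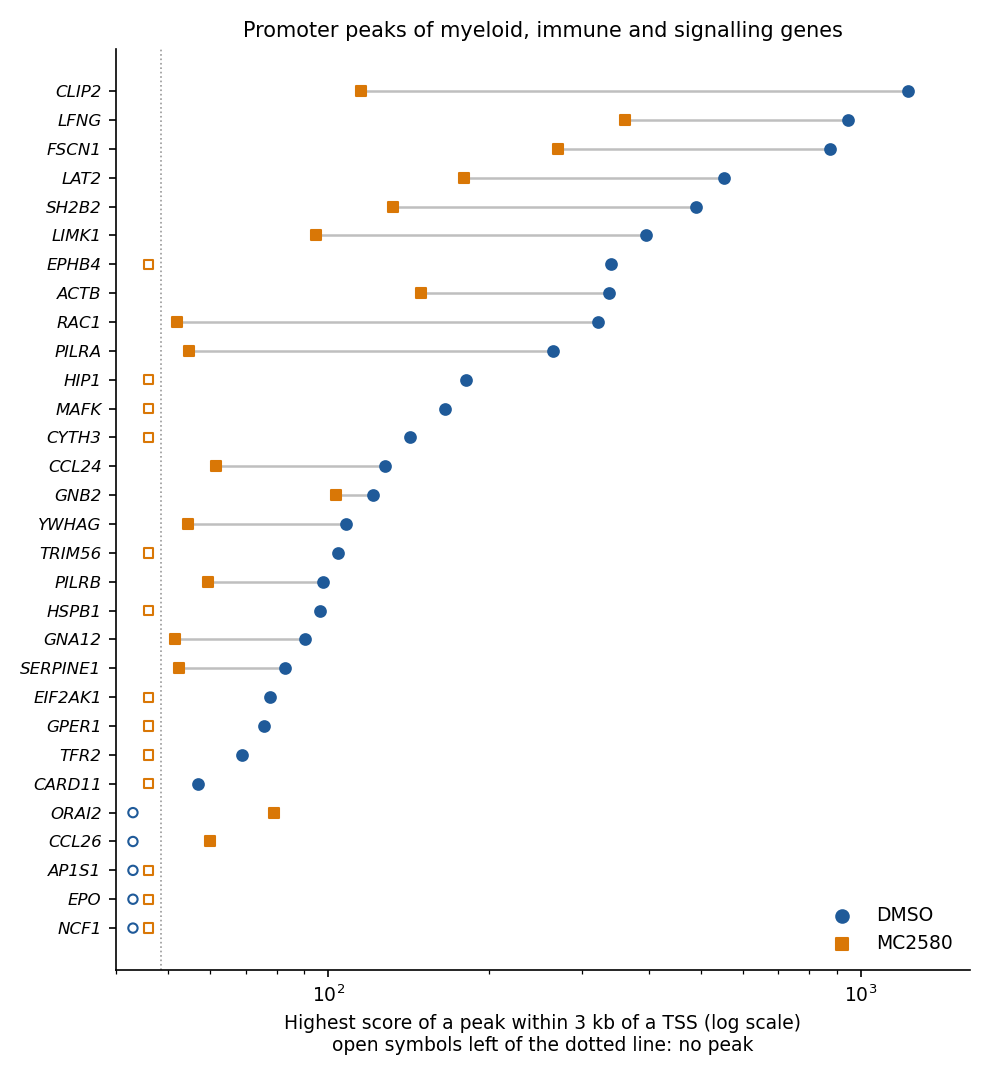
Highest score of a peak within 3 kb of a TSS for 30 myeloid, immune and signalling genes of the segments, on a log scale, in DMSO (circles) and MC2580 (squares); lines join genes with both, and open symbols left of the dotted line mark genes without a peak in that list. For all 15 joined genes the square lies left of the circle.

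Of 30 transcription and chromatin regulators, 22 (73.3%) had a DMSO and 16 (53.3%) an MC2580 promoter peak, against 59.7% and 45.3% of all genes of the segments. Over the 198 genes with less than 50% repeated promoter sequence the shares were 69.7% and 53.5%, close to those of the list. In 13 of the 14 with both the MC2580 score was the lower. MLXIPL, which encodes the glucose-responsive factor ChREBP, scored 231.76 and 114.58, and CUX1 scored 125.71 and 81.29. FOXK1, a forkhead factor gene, had 104.86 in DMSO and none in MC2580. The exception was MCM7, with 90.97 in DMSO and 130.79 in MC2580.

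Of 22 genes of the Williams syndrome deletion, all in the CLIP2 segment, 17 (77.3%) had a DMSO and 12 (54.5%) an MC2580 promoter peak. Over all genes of the CLIP2 segment the shares were 54.2% and 37.3%, but these include genes with duplicated promoters, and the list holds none of the 38. Over the 198 genes of all segments with less than 50% repeated promoter sequence the shares were 69.7% and 53.5%. Each of the 12 was also among the 17. In 11 of these the MC2580 score was the lower. STX1A, a syntaxin gene, scored 531.45 and 244.8, RFC2, a clamp loader gene, 202.98 and 78.49, and ELN, the elastin gene, 164.54 and 67.8. EIF4H, a translation factor gene, scored 63.38 and 78.31. BUD23 and DNAJC30 shared a DMSO peak of 143.73 and had none in MC2580. Some genes stand in more than 1 list.

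Of 9 mucin and CYP3A genes in the CUX1 segment, 5 (55.6%) had a DMSO and 6 (66.7%) an MC2580 promoter peak. Over all genes of the CUX1 segment the shares were 54.4% and 45.6%. Over the 198 genes of all segments with less than 50% repeated promoter sequence they were 69.7% and 53.5%. MUC3A and MUC12 shared the strongest, 239.71 in DMSO and 153.54 in MC2580. CYP3A4 and CYP3A7, which encode drug-metabolising enzymes, had MC2580 peaks alone, at 56.03 and 60.68, close to the calling threshold.

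Words of blood transcription factors stood in the middles of few of the segments' peaks. RUNX stood in 1.87% of DMSO middles and in 1.34% of flanking windows 2000 bp away, a difference of 0.525 points (-0.450 to 1.75). In the rest of chromosome 7 it stood in 3.66% of DMSO middles, a difference of -1.79 points (-3.05 to -0.384). The segments were also below the rest for CEBP, with a difference of -3.82 points (-6.10 to -1.37), for GATA, with -4.46 (-6.49 to -2.28), and for GFI1, with -1.93 (-3.23 to -0.481). For PU.1 and AP-1 the differences were 0.0479 (-0.979 to 1.28) and -0.717 (-2.73 to 1.48). Among MC2580 peaks the interval against the rest left 0 for GFI1, at -1.84 (-3.18 to -0.252), and held 0 for the other 5 words, with RUNX at -0.642 (-2.01 to 1.07). PU.1 stood in 1.75% of middles and 1.05% of flanks, AP-1 in 6.53% and 4.90%, CEBP in 7.47% and 5.601%, GATA in 5.25% and 5.66%, and GFI1 in 1.98% and 2.10%. For the segments together, the interval of this difference in DMSO held 0 for each of the 6 words. For MC2580 the GFI1 word stood in 1.01% of middles and 2.94% of flanks, a difference of -1.92 points (-3.30 to -0.322), and the other 5 intervals held 0. Across the rest of chromosome 7 the DMSO difference from flanks was 1.99 points (1.02 to 3.10) for RUNX. For CEBP it was 2.08 (0.275 to 3.99), and for PU.1 0.788 (0.127 to 1.60). For GATA it was -2.87 (-4.68 to -0.958), and the AP-1 and GFI1 intervals held 0. The segments held fewer DMSO peaks, 857 against 1586, and gave 0.700 for PU.1 and 1.87 for CEBP. Among the 48 combinations of segment, list and word, 3 intervals of the difference from flanks lay above 0 and 0 below. They were CEBP in DMSO peaks of the FSCN1 segment, with 5.18 points (0.372 to 11.1), AP-1 in DMSO peaks of the CLIP2 segment, with 4.44 (0.473 to 9.13), and PU.1 in MC2580 peaks of the CLIP2 segment, with 3.24 (0.152 to 8.69). For the difference from the rest of the chromosome, some intervals of single segments lay below 0 and none above. The intervals were not adjusted for the number of combinations.

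The windows also differed in base composition. Median GC in the middle 200 bases was 55.0% in DMSO and 56.0% in MC2580 in the segments, against 50% and 49.5% in the rest, and it was highest in the MAD1L1 segment, at 59.0% and 61.0%. The sequence of the segments as a whole was 49.4% GC and that of the rest 39.9%. The part of base composition in the word shares was not tested.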

How the data were processed

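The data were 2 peak lists, each called on 1 V5-GSE1 ChIP library. The deposited score is the peak caller's own value, written by the authors as minus 10 times the log10 of a p-value. Per the study's methods and the submitters' processing notes, reads were checked with FastQC 0.11.5 and aligned to hg38 with Bowtie 4.8.2. Uniquely matching reads with at most 2 mismatches were kept, and peaks were called with MACS at 1e-05 against the input and the empty-vector ChIP. How these backgrounds were combined is not given in the sources used here. Each list was assigned to its condition from its name. Depth is unknown.

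Starting positions gave the segments. Genes were from GENCODE version 44, promoters lay within 3 kb of a TSS, and overlap was at least 1 bp. With 1 library per group no test between conditions was made. Shares have Wilson, differences Newcombe and medians order-statistic 95% intervals. Repeated 50-letter stretches and 16-letter words with at least 1000 copies were counted on chromosome 7 alone. Functions were tested on simulated data. The segments, gene lists and words were chosen with earlier results of these data known. Named peaks were, per segment, the 3 highest of each list and the highest without a partner, and further genes and pairs were named after their values were seen. The settings varied were a score limit of 100, a width limit at the 99th percentile of both lists, assignment by centre, merging within 1 kb, other overlap rules, other promoters, 400 bp windows, omission of each segment and, for the rest of the chromosome, omission of its dense bins. Python 3.11.15, numpy 2.4.6, scipy 1.17.1, numba 0.67.0 and matplotlib 3.10.9 were used. The middles of some of the strongest peaks are not reported here.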

Additional observations from a re-analysis of the deposited data

How the results depend on the processing

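Of 109 alternative values, 82 stayed within the main 95% interval, 27 left it and none turned a ratio across 1. Those that stayed include all values under the width limit and under assignment by centre, which equalled the main values. The width limit, 7875 bp, was above the widest peak of chromosome 7, 6973 bp, so it removed no peak and could not move a value. The ratio of peak numbers moved with the score limit. At scores of at least 100 it was 0.323 over the segments, 0.407, 0.25, 0.263 and 0.348 in the MAD1L1, FSCN1, CLIP2 and CUX1 segments, and 0.298 in the rest of the chromosome, so that the CLIP2 segment was no longer the lowest. Without its dense 1 Mb bins the rest gave 0.705. The median score ratio of pairs fell to 0.429 at scores of at least 100. The overlap of DMSO peaks was 31.4% with gaps of up to 1 kb, 19.3% with 50% of the shorter peak and 13.8% with 50% of both. For MC2580 peaks these values were 51.6%, 34.8% and 23.9%, and 67.9% at scores of at least 100. Promoter peaks were 28.5% of DMSO and 24.7% of MC2580 peaks within 1 kb of a TSS, 38.4% and 35.4% with TSSs of protein-coding genes alone, and 51.5% and 52.4% at scores of at least 100. Genes with a promoter peak were 46.2% in DMSO and 29.2% in MC2580 within 1 kb, and 32.6% and 13.1% at scores of at least 100. The RUNX share was 3.73% in 400 bp windows, and the PU.1 share 3.46% at scores of at least 100. Fewer peaks, or other windows and distances, define these alternatives, and other causes were not tested. Leaving out any segment moved no value of the remaining segments outside its interval. No paired analysis was possible because each condition had 1 library, and for the same reason no replicate could be left out. Unknown depth limits each comparison of counts and scores.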

Other observations

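High-copy words, a measure added after the data had been seen, were set out for all peaks of the segments. A 16-letter word with at least 1000 copies on chromosome 7 stood in the middle 200 bases of 245 of 857 DMSO peaks, or 28.6% (25.7 to 31.7), and of 110 of 494 MC2580 peaks, or 22.3% (18.8 to 26.1). Flanking windows held such a word more often, in 43.9% and 38.97%. In the rest of the chromosome the middles held it in 14.6% and 13.96%. The segments are also richer in such words as a whole, which began at 9.48% of their positions against 5.06% in the rest.

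The CLIP2 segment had the highest share, 42.7% of its DMSO peaks, and the MAD1L1 segment the lowest, 13.4%. Among CLIP2 segment DMSO peaks scoring at least 200, 12 of 26 held such a word, or 46.2% (28.8 to 64.5). Over all segments no MC2580 peak among the 14 scoring at least 200 held such a word, with an interval up to 21.5%. Of the 86 DMSO peaks at that score 19 did, or 22.1% (14.6 to 31.9), so the intervals overlapped. In the rest of the chromosome the order was the reverse, with 2 of 22 MC2580 peaks (9.09%) and 7 of 154 DMSO peaks (4.55%).

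DMSO peaks with a high-copy word in the middle had an MC2580 partner in 13.9% of cases (10.1 to 18.8), and those without in 26.1% (22.8 to 29.8). Their median scores were 77.5 (72.6 to 82.1) and 82.4 (79.2 to 85.9). Peaks with and without the word lay in promoters in 41.2% and 45.9% of cases.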
